A study of Danio rerio with 36 samples.

Results

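The comparison set embryos held in MTBE at 5 mM (methyl tert-butyl ether, an oxygenate once blended into petrol) against embryos held in either of 2 lower doses, all collected at the 6-somites stage. Its members were set by their labels, with earlier results of these data known. They were the 3 arrays of 5 mM and the 3 arrays each of 0.625 mM and 0.00625 mM, 9 of the 36 arrays of the series. No control array entered the comparison. All 15502 probe sets that are not manufacturer controls were tested.

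The embryos were zebrafish (Danio rerio) of genotype Tg(fli1a:EGFP)y1, whose fli1a promoter drives a green fluorescent protein in endothelial cells, and every group was of this genotype. MTBE was added at about 3 hours post fertilization (hpf) in sealed glass vials at 25 C, and the 6-somites embryos were frozen at about 15 hpf. The series also held untreated embryos in medium alone and 2 later collections, 21-somites at about 24 hpf and then Prim-5 at about 30 hpf. Each array measured the amplified RNA of whole embryos, with 15 embryos pooled per sample and 3 such samples per group. Per the study's design text, 5 mM is a dose that damages blood vessels and lowers vegfa, 0.625 mM is their no-effect level, and 0.00625 mM lies 100 times below it. The comparison therefore asks what the harmful dose does to transcripts relative to doses without visible harm, before blood flow begins. In RNA from whole embryos, fewer cells of a type and less RNA per cell cannot be told apart.

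At the 6-somites stage the trunk mesoderm is being cut into somites, the blocks that give rise to skeletal muscle. The first slow muscle cells beside the notochord have begun to make contractile proteins, while most fast muscle genes are still nearly silent. Angioblasts are the precursors of the blood vessels, and vascular endothelial growth factor A (Vegfa) is the main signal that later guides their growth. The yolk syncytial layer, a shell of nuclei around the yolk, packs yolk lipid into lipoproteins for the embryo.

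The 9 arrays were alike. Their median log2 levels lay between 3.5 and 3.57, and pairs of arrays of the same dose correlated at r = 0.988 to 0.995 across probe sets, against 0.988 to 0.994 for 5 mM paired with a lower dose. Of the variance among them, 20.8% fell on the first principal component, 17.0% on the second and 14.8% on the third, and each component set 1 array apart (0.00625 mM replicate 1, 5 mM replicate 1 and 0.625 mM replicate 3) with no separation of the doses. Of 60 marker genes of 14 cell types, 54 had a probe set. Of these, 39 lay above 3.25, the mean log2 level of the array's control for AsRed2, and 48 above 2.40, that for DsRed1, both fluorescent proteins that the line is not labelled as carrying. The markers of neural tissue, epidermis, eye field, notochord and yolk syncytial layer all exceeded the AsRed2 level. Of 3 blood vessel markers 1 did, fli1 at 5.32, while tie1 read 2.39 and kdrl 1.53, and of 6 blood markers 1 did. The EGFP control itself averaged 2.71 at 5 mM and 2.94 at the lower doses (exact two-sided permutation test, p = 0.238). Its mean over the 9 arrays, 2.86, lay between those of DsRed1 and AsRed2, and whether it reported the transgene was not settled.

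No transcript differed between 5 mM and the lower doses at an adjusted p under 0.05. The fit by limma called 0 of 15502 probe sets (0%), and the smallest adjusted p was 0.173. At an unadjusted p under 0.05 there were 668 higher (4.31%) and 616 lower (3.97%) probe sets, 1284 in all, where 775.1 would be expected on average if no probe set differed. The 2 lower doses set against each other gave 1251 (3.15% higher in 0.625 mM and 4.92% lower), and the 9 arrays fitted without the other stages gave 792 for 5 mM. Leaving out 5 mM replicate 2 raised the number of calls at the adjusted level to 8, of which 5 were higher and 3 lower. They were zgc:173856, chmp3 and atp2a2a (a calcium pump of heart and muscle, at 0.39 with all arrays) on the higher side, smyhc1 and myl13 on the lower side, and 3 unnamed probe sets. The atp2a2a probe set was dim, at a mean of 1.95, and the gene's other probe set differed by 0.09 with all arrays. Leaving out 0.00625 mM replicate 1 gave 1 call, prpf8. All 3 arrays of 5 mM lay above all 6 arrays of the lower doses for 174 probe sets (1.12%) and below them for 169 (1.09%). These shares were 1.08% and 1.44% for the same doses at 21-somites, and 1.33% and 1.2% at Prim-5.

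The differences were small and, under a spread pooled over the 3 stages, fairly tightly bounded. The largest was 0.58 upward (snx14) and -0.64 downward (cnr1) on the log2 scale, so none reached 2-fold. The median standard error of a difference was 0.118, and the median 95% interval reached 0.24 to either side. These intervals excluded a 2-fold difference for 15501 of the 15502 probe sets and a 1.5-fold difference for 14976 (96.6%). Among the 8362 probe sets above the AsRed2 level, 8362 excluded 2-fold and 8092 (96.8%) excluded 1.5-fold. Dim probe sets compress real ratios, so the intervals bound the measured difference and not that of the RNA. Under the pooled spread 1284 probe sets had an unadjusted p under 0.05 at 6-somites and 492 at 21-somites. The 9 arrays of 6-somites fitted alone gave 792. The mean correlation of an MTBE array with its replicates ran from 0.990 to 0.993 at 6-somites. It ran from 0.994 to 0.995 at 21-somites and from 0.992 to 0.995 at Prim-5. Whether the pooled spread, and so the standard errors and intervals, were too small for 6-somites was not tested.

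**Figure D1:**
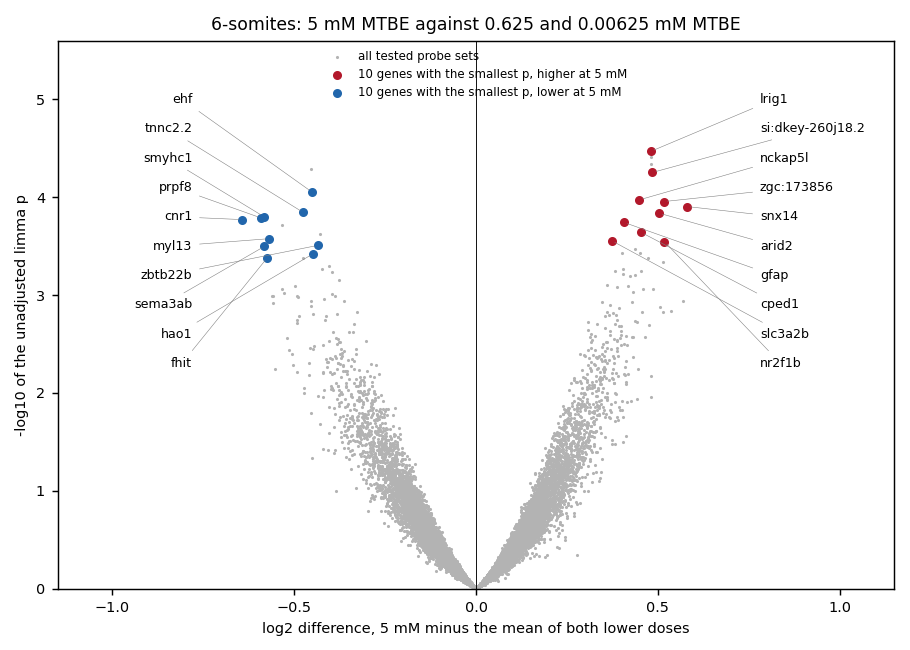
Log2 difference between 5 mM and the mean of both lower doses at 6-somites (x axis) against -log10 of the unadjusted limma p (y axis), one point for each of 15502 probe sets. Coloured points are the 10 genes with the smallest p each way; no point passed an adjusted p under 0.05, and all lay between -0.64 and 0.58.

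The 10 genes each way with the smallest p are described next, and none of them passed the test. On the higher side the differences ran from 0.37 to 0.58, with adjusted p from 0.173 to 0.210 (limma). On the lower side they ran from -0.64 to -0.43, with adjusted p from 0.187 to 0.217. With the 9 arrays of 6-somites fitted alone in 3 groups, the smallest limma adjusted p of any probe set was 0.879. With the lower doses as 1 group it was 0.912. All 20 had the same sign against 0.625 mM alone and against 0.00625 mM alone. Ranking by p favours this, because the ranked difference is the average of these 2 and shares their arrays. In 8 of the 10 higher and 7 of the 10 lower genes the arrays of the 2 groups did not overlap, a feature that ranking by p favours.

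The gene with the smallest p was lrig1, which in mammals encodes a membrane protein that damps epidermal growth factor receptor signalling. Its log2 level was 4.72, 4.50 and 4.28 in the 3 arrays of 5 mM, against 3.90 to 4.17 (median 3.99) in the lower doses. Every 5 mM array lay above every lower-dose array, and the difference was 0.48 ± 0.10 (SE; limma adjusted p = 0.173).

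For gfap, the intermediate filament of glia and of radial neural progenitors, the 5 mM arrays read 4.05, 3.99 and 4.19, and the lower doses 3.54 to 3.78 (median 3.69). The groups did not overlap and differed by 0.41 ± 0.10 (limma adjusted p = 0.187). The untreated embryos of the stage read 3.98, 4.14 and 3.97, as high as those at 5 mM.

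slc3a2b encodes the heavy chain that carries several amino acid transporters to the cell surface. It read 5.07, 4.91 and 4.98 at 5 mM, against 4.34 to 4.82 (median 4.66) at the lower doses, again without overlap. The difference was 0.37 ± 0.09 (limma adjusted p = 0.210), and it was 0.52 against 0.00625 mM but 0.23 against 0.625 mM.

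snx14, a sorting nexin of the endosomal and lysosomal membrane system, read 4.59, 4.77 and 4.73 at 5 mM and 3.45 to 4.53 (median 4.18) at the lower doses. The 5 mM arrays were close together, while the lower-dose arrays were spread over more than 1 log2 unit (difference 0.58 ± 0.13, a fold of 1.49). arid2, a subunit of a chromatin remodelling complex of the SWI/SNF family, read 5.26, 5.07 and 4.77 against 4.24 to 4.75 (median 4.50), a difference of 0.50 ± 0.12 with no overlap. A brighter probe set of arid2, at a mean of 5.46, differed by only 0.13. nckap5l read 6.18, 5.87 and 5.77 against 5.15 to 5.72 (median 5.52), a difference of 0.45 ± 0.10 with no overlap. Its other probe sets, all dimmer, differed by 0.22, 0.15 and 0.06.

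The other 4 genes on the higher side were dim, with means below the AsRed2 level. They were si:dkey-260j18.2 (0.49), zgc:173856 (0.52), cped1 (0.45) and nr2f1b (0.52), the last encoding an orphan nuclear receptor of the COUP-TF family. The other probe sets of si:dkey-260j18.2 differed by -0.15 and -0.27 and those of zgc:173856 by -0.15 to 0.03, so the leading probe set of each was not matched by the rest.

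Among the lower genes, 3 encode contractile proteins. smyhc1, the myosin heavy chain of slow muscle, read 6.48, 7.42 and 7.26 at 5 mM, against 7.42 to 7.80 (median 7.68) at the lower doses. Replicate 1 of 5 mM stood far below the rest, and the highest 5 mM array only just cleared the lowest lower-dose array. The difference was -0.58 ± 0.14 (limma adjusted p = 0.187), and -0.30 without that array.

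tnnc2.2, a troponin C of fast muscle, read 3.75, 4.14 and 4.40 against 4.32 to 4.76 (median 4.60), with 1 overlapping 5 mM array and a difference of -0.48 ± 0.11. myl13, a myosin light chain, read 2.23, 3.24 and 2.92 against 3.06 to 3.55 (median 3.39), with 1 overlapping array and a difference of -0.57 ± 0.14. Without 5 mM replicate 1 the differences were -0.30 for tnnc2.2 and -0.28 for myl13. In all 3 genes that array was the lowest of the 9.

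hao1 encodes hydroxyacid oxidase, a peroxisomal enzyme of the liver. It read 5.09, 5.15 and 4.95 at 5 mM and 5.29 to 5.64 (median 5.52) at the lower doses, a difference of -0.45 ± 0.11 with no overlap. Untreated embryos spanned both groups, at 4.60, 5.12 and 5.42. sema3ab, a secreted semaphorin that guides axons and migrating cells, read 2.5, 3.11 and 3.25 against 3.38 to 3.84 (median 3.47), a difference of -0.58 ± 0.14 that was -0.36 without 5 mM replicate 1.

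cnr1, the type 1 cannabinoid receptor, read 2.16, 2.33 and 1.68 against 2.40 to 2.91 (median 2.74), a difference of -0.64 ± 0.15 at a level below the AsRed2 mean. Its untreated embryos read 1.98, 1.84 and 2.26, as low as those at 5 mM. fhit, a hydrolase of dinucleoside polyphosphates, read 2.95, 3.74 and 3.90 against 3.93 to 4.34 (median 4.05), and its difference of -0.57 ± 0.15 was -0.28 without 5 mM replicate 1. Its other probe set, at a mean of 1.46, differed by -0.04. The remaining lower genes were dim: ehf (-0.45), an ETS factor of epithelia in mammals, zbtb22b (-0.43) and prpf8 (-0.59), a core protein of the spliceosome whose other probe sets differed by -0.12 and 0.08. A brighter probe set of zbtb22b, at a mean of 2.99, differed by -0.12.

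**Figure D2:**
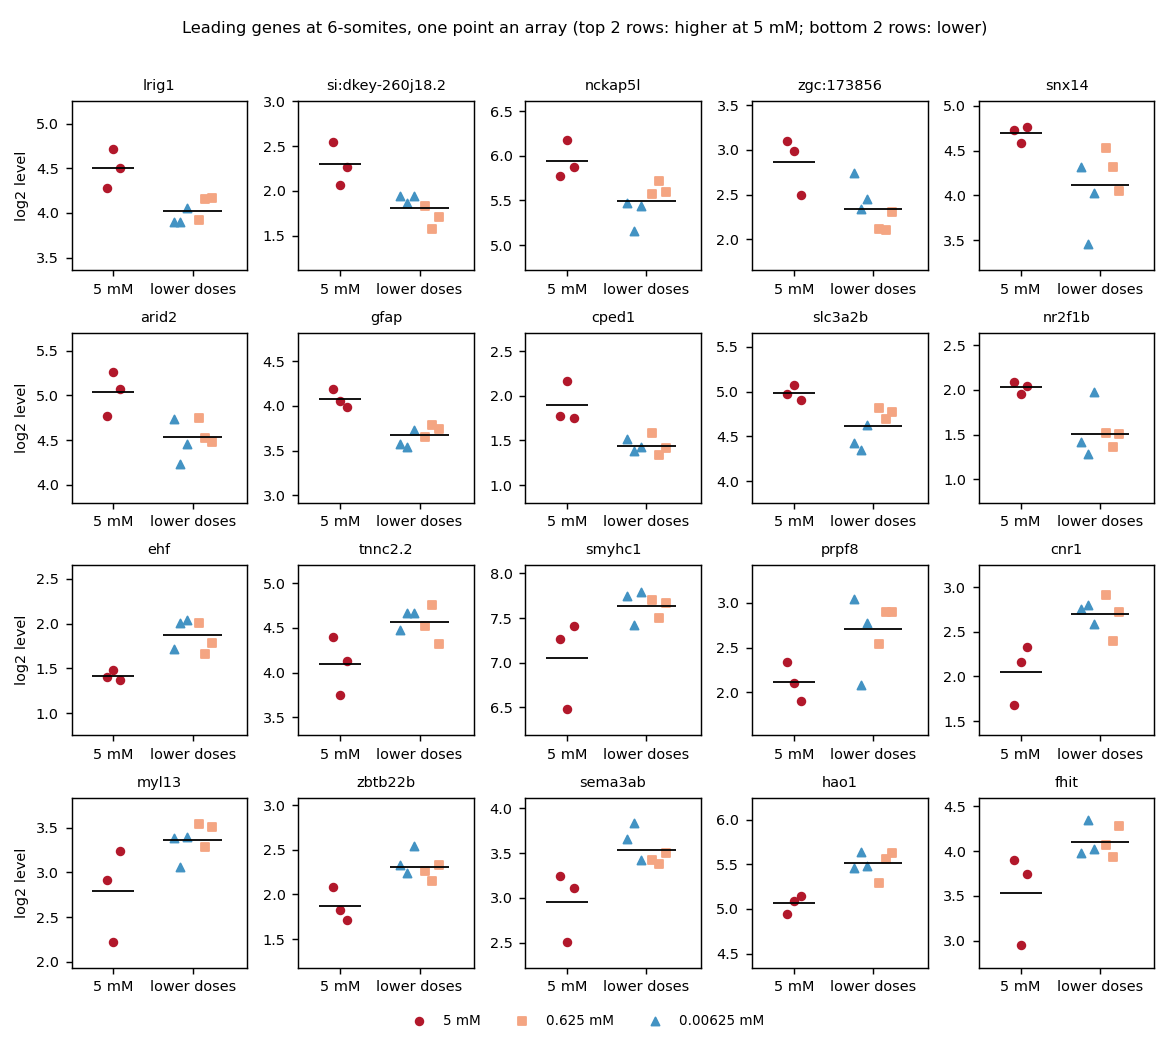
Log2 level (y axis) of the 20 leading genes in each array at 6-somites, with 5 mM left and the 2 lower doses right (squares 0.625 mM, triangles 0.00625 mM); horizontal lines are means, and every panel spans the same 1.9 log2 units. The lowest point of smyhc1, tnnc2.2, myl13, sema3ab and fhit is 5 mM replicate 1, and for 15 of the 20 genes the groups do not overlap.

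Untreated embryos took no part in the comparison. Their mean lay between that of 5 mM and that of the lower doses for 7 of the 10 higher and 8 of the 10 lower genes. For the other 3 higher genes it lay below the lower-dose mean, and for cnr1 and hao1 it lay just below the 5 mM mean. Untreated replicate 1 weighed on some of these means. It read 3.97 for slc3a2b against 4.80 and 4.71 in the other untreated arrays, and 4.60 for hao1 against 5.12 and 5.42. Its mean over the yolk syncytial layer and lipid transport genes was also the lowest, at 4.66 against 5.35 and 5.42.

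The gene named in the study's design, vegfa, has 2 zebrafish copies, of which vegfaa had a probe set. vegfaa read 1.14, 1.36 and 1.48 at 5 mM, against 1.24 to 1.73 (median 1.53) at the lower doses. The groups overlapped, and the difference was -0.18 ± 0.11 with a 95% interval of -0.40 to 0.04 (limma adjusted p = 0.710). All 9 values were below the means of both AsRed2 and DsRed1, and values that low may not track a change in RNA. vegfc, a growth factor of veins and lymphatic vessels, read 2.46, 2.98 and 2.63 against 2.54 to 3.16 (median 2.86), a difference of -0.18 ± 0.15 (limma adjusted p = 0.804).

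The 27 measured genes of blood vessels held no member past an unadjusted p under 0.05, and their median difference was 0.02. Over all 8793 named genes, taken with 1 probe set a gene, 351 were higher (3.99%) and 393 lower (4.47%) at that level, and the median difference was -0.01. The 4 vessel genes with the smallest p were prox1a (-0.27 ± 0.14), which specifies lymphatic vessels, the artery genes efnb2a (0.17 ± 0.09) and hey2 (0.18 ± 0.13), and vegfaa. Of these only efnb2a and hey2 lay above the AsRed2 level, and for efnb2a the 5 mM arrays at 7.61, 7.73 and 7.55 overlapped the lower doses at 7.27 to 7.64 (median 7.45).

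The skeletal muscle list, which holds contractile proteins, precursor factors and fusion genes, had the most lower members of the 37 lists. Of 39 measured genes, 0 passed at the adjusted level, while 10 were lower and 3 higher at an unadjusted p under 0.05, against the 4.47% and 3.99% over all genes. The list's median difference was -0.04, with 24 members (61.5%) below 0, against 52.2% of all genes. In 3 members the groups did not overlap on the lower side (1.22% of all genes). The count of 10 was 7 without 5 mM replicate 1, 5 when the 6-somites arrays were fitted alone with the lower doses as 1 group, and 4 when 50 was added on the linear scale. Over all probe sets the lower share was 3.97% in the main fit, and 2.81%, 2.43% and 3.17% in these settings in turn.

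After smyhc1 and tnnc2.2 the leading members were actc1b and mybphb. actc1b, the sarcomeric actin of early muscle, read 5.25, 5.65 and 5.55 at 5 mM and 5.65 to 6.06 (median 5.89) at the lower doses, a difference of -0.40 ± 0.11 with no overlap by a narrow margin. mybphb, a myosin-binding protein, read 3.96, 4.03 and 3.62 against 4.05 to 4.62 (median 4.24), a difference of -0.42 ± 0.12. For these 2 genes the untreated embryos read 5.58, 5.62 and 5.74 (actc1b) and 3.84, 3.96 and 3.80 (mybphb). In actc1b their mean lay between those of the groups, and in mybphb they lay within the range of the 5 mM arrays.

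The other lower members, chosen after their values were seen, were myhz1.3 (-0.37), mylpfa (-0.34), atp2a1 (-0.30), tnni2b.1 (-0.26), myl1 (-0.25) and desma (-0.20). Most are fast muscle proteins, and 4 of the 10 lower members lay below the AsRed2 level. Each of the 10 was lower against both doses taken singly, which choosing them by p in the same arrays favours. Their levels in MTBE embryos were 2.13 to 6.35 log2 units higher at 21-somites, the stage at which the differences of the 10 ran from -0.34 to 0.09.

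Without 1 array some of these were smaller: myl1 was -0.14 without 5 mM replicate 2 and tnni2b.1 -0.17 without 0.00625 mM replicate 3. The 3 higher members, also added after their values were seen, were mylz3 (0.40 ± 0.12), a myosin light chain, pax3a (0.34 ± 0.12), a factor of muscle precursors and neural crest, and jam2a (0.34 ± 0.13), an adhesion protein needed for myoblast fusion, at 0.16 without 5 mM replicate 1. Of the factors that commit cells to muscle, added in the same way, myod1 differed by 0.10 ± 0.10, myog by 0.02 ± 0.15 and myf5 by -0.20 ± 0.12. The mean log2 level of the list was 3.77, 3.83 and 3.85 in the 5 mM arrays, against 3.82 to 3.94 in the lower-dose arrays, and 3.82, 3.72 and 3.86 in untreated embryos.

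**Figure D3:**
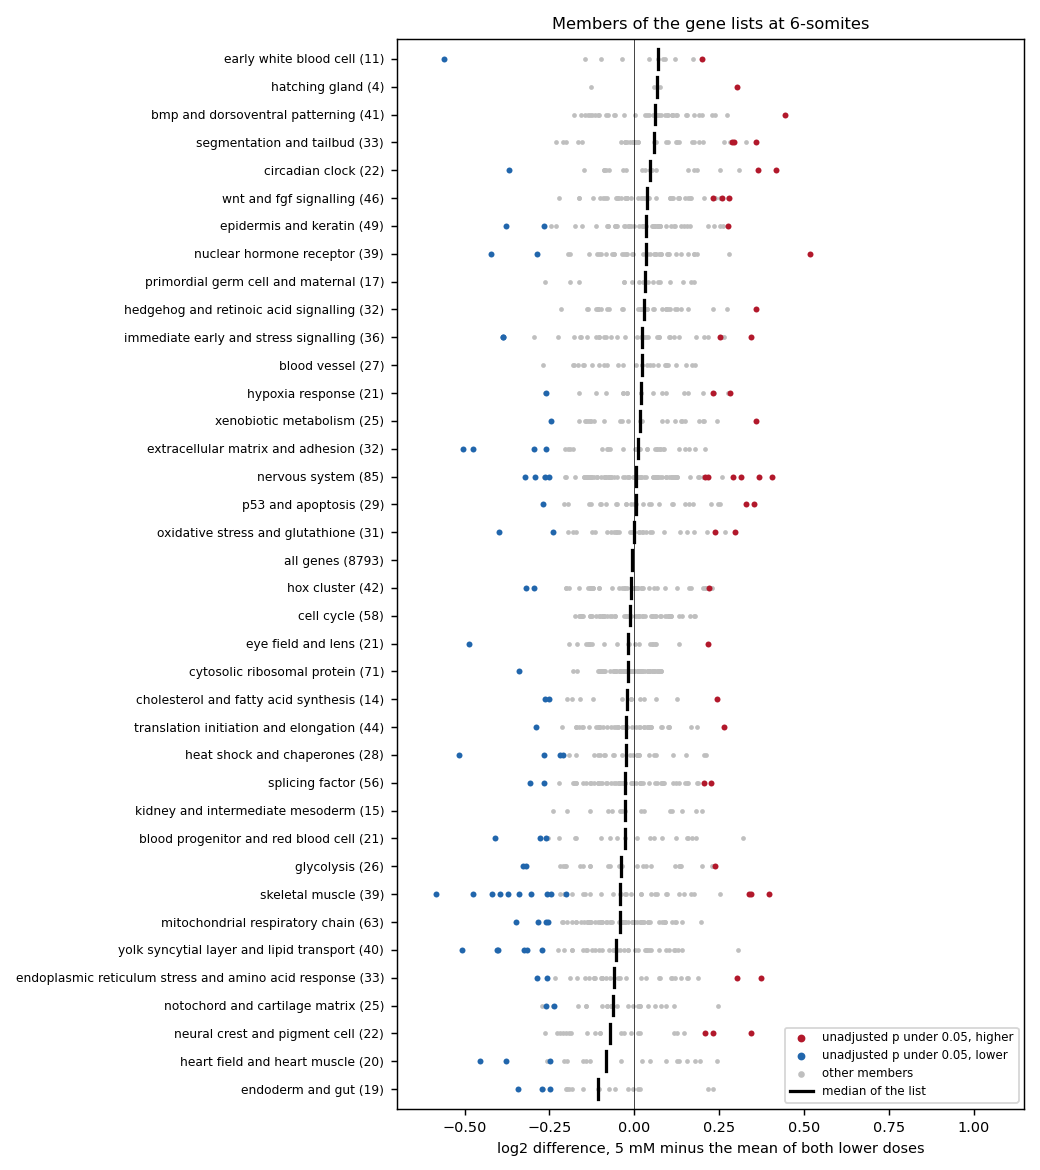
Log2 difference between 5 mM and the mean of both lower doses (x axis) for every measured member of 37 gene lists (rows, number of members in brackets), with the median of each list as a black bar and the row of all genes showing its median alone. Coloured points have an unadjusted limma p under 0.05 and none passed after adjustment; skeletal muscle has 10 lower and 3 higher members, yet its median is -0.04.

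Of 20 heart genes, 3 were lower (15%) and 0 higher at an unadjusted p under 0.05, against 4.47% and 3.99% of all genes. The lower ones were the cardiac myosin light chain myl7 (-0.45 ± 0.13) and the factors tbx20 (-0.38 ± 0.12) and gata6 (-0.25 ± 0.12). Without 5 mM replicate 1 tbx20 was -0.24, and without replicate 2 gata6 was -0.13. The heart myosin myh7 (-0.26 ± 0.13) did not reach that p, and the list's median was -0.08. myl7 read 2.03, 2.2 and 2.01 at 5 mM against 2.19 to 2.78 (median 2.54), below the AsRed2 mean in every array. Of 21 red cell genes, 3 were lower (14.3%) and 0 higher: the embryonic globins hbbe3 (-0.41 ± 0.14) and hbae3 (-0.26 ± 0.12) and the heme enzyme alas2 (-0.28 ± 0.11). Their 5 mM arrays overlapped those of the lower doses, and for alas2 the difference was -0.52 against 0.00625 mM and -0.04 against 0.625 mM. In the same order it was -0.65 and -0.18 for hbbe3, and -0.16 and -0.36 for hbae3. The fourth by p, the heme enzyme fech, lay at 0.32 ± 0.17 and did not reach that p. Of the 21 genes 10 were above 0 and 11 below, with a median of -0.03. The endoderm and gut list, described after its values were seen, had the lowest median of all lists, at -0.11. Of its 19 genes 15 lay below 0 (78.9%, against 52.2% of all genes), with 3 lower (15.8%) and 0 higher at that p. They were gcga (-0.34 ± 0.11), fabp2 (-0.27 ± 0.12) and gata6, with sox17 next at 0.22 ± 0.11. For gcga and fabp2 the groups did not overlap (10.5%, against 1.22% of all genes). At 21-somites the list's median was -0.12, and at Prim-5 it was 0.05.

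Genes of the yolk syncytial layer and lipid transport had 6 lower (15%) and 0 higher members of 40, against 4.47% and 3.99% of all genes. Their median was -0.06, and it was -0.01 against 0.625 mM alone and -0.11 against 0.00625 mM alone. In these 2 comparisons 21 and 27 of the 40 lay below 0, against 4482 and 4732 of all 8793 genes. For 0.625 mM against 0.00625 mM the list's median was -0.08. The clearest was fabp1b.1, a fatty acid-binding protein. It read 9.54, 9.50 and 9.35 at 5 mM and 9.65 to 10.10 (median 9.84) at the lower doses, a difference of -0.41 ± 0.10 without overlap (limma adjusted p = 0.244).

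The others were the apolipoprotein apoa4a (-0.51 ± 0.16), the protease inhibitor serpina1l (-0.40 ± 0.13), the lipid enzyme mogat2 (-0.32 ± 0.14), and, added after the values were seen, fabp2 (-0.27) and hpda (-0.32). Untreated embryos spread more than the MTBE groups for these genes, fabp1b.1 at 8.39, 9.62 and 9.94. When the spread was estimated from all 36 arrays, untreated ones included, the number of lower members was 0. Without 5 mM replicate 1 it was 1, with 1 member higher and a median of -0.00, and without 5 mM replicate 2 it was 8, with a median of -0.14. Over all probe sets the lower share was 3.97% in the main fit and 3.34% with all 36 arrays. It was 2.81% without 5 mM replicate 1 and 5.36% without 5 mM replicate 2. mogat2 was -0.18 without 5 mM replicate 1. Of 14 genes of cholesterol and fatty acid synthesis, also described after their values were seen, 2 were lower (14.3%) and 1 higher (7.14%). They were fads2 (-0.26 ± 0.11), fdps (-0.25 ± 0.11, and -0.14 without 5 mM replicate 3) and aclya (0.24 ± 0.11), with cyp51 next at -0.18 ± 0.13. The median was -0.02. The means of fads2, 2.79, and aclya, 2.62, lay below the AsRed2 level. Of the 37 lists only this one had array means that did not overlap, narrowly, at 3.370 to 3.426 for 5 mM and 3.430 to 3.474 for the lower doses. Taken singly, 1.22% of all genes did not overlap on the lower side and 0.989% on the higher. Whether 1 such list among 37 exceeds chance was not tested.

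Stress and detoxification lists gave few and mixed members. Of all genes, 4.47% were lower and 3.99% higher at an unadjusted p under 0.05. The lower share was 14.3% for chaperones, and for xenobiotic metabolism the shares were 4% each way. Of 28 heat shock and chaperone genes, 4 were lower and 0 higher, led by hsp90aa1.2 (-0.52 ± 0.16) with 4.37, 4.20 and 3.92 at 5 mM against 4.43 to 5.35 (median 4.56). The other 3 were hspa4a (-0.27), hspa9 (-0.21) and hsp90aa1.1 (-0.22). Without 5 mM replicate 1, hspa4a was -0.17 and hsp90aa1.1 -0.12. Of 25 genes of xenobiotic metabolism, 1 was higher (aldh1a2, 0.36 ± 0.12, which makes retinoic acid in the somites) and 1 lower (cyp2k18, -0.25 ± 0.10, and -0.13 without 5 mM replicate 1). Next by p were ahr1a (0.20 ± 0.10), an aryl hydrocarbon receptor, and the alcohol dehydrogenase adh8a (0.24 ± 0.13). cyp1a, the enzyme induced through such receptors and added after its value was seen, differed by -0.12 ± 0.12 at a level of 1.68.

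Of 31 oxidative stress genes, 2 were higher (prdx3, 0.30, and sqstm1, 0.24) and 2 lower (sod2, -0.40, and prdx2, -0.24). For prdx3 the difference was 0.52 against 0.625 mM and 0.08 against 0.00625 mM. Of 29 genes of the p53 pathway and apoptosis, casp9 (0.35 ± 0.12), an initiator caspase, and gadd45bb (0.33 ± 0.13) were higher and ccng1 (-0.27 ± 0.12) was lower. gadd45bb was 0.22 without 5 mM replicate 1. tp63, a p53 relative of the epidermis, followed at 0.25 ± 0.13. casp9 read 3.34, 3.24 and 3.42 at 5 mM against 2.67 to 3.19 (median 3.03), without overlap. The hypoxia list of 21 genes had 2 higher (hif1al, 0.28 ± 0.13, and arnt2, 0.23 ± 0.11) and 1 lower (ca9, -0.26 ± 0.13), and ndrg1a followed at -0.26 ± 0.13. The mean of ca9, 2.45, lay below the AsRed2 level. In each of these lists the members past an unadjusted p under 0.05 did not share a direction, apart from the chaperones. Of all genes 3.99% were higher and 4.47% lower at that level. The shares were 6.45% each way for oxidative stress, 6.9% and 3.45% for p53 and apoptosis, and 9.52% and 4.76% for hypoxia.

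The segmentation and tailbud list of 33 genes had 3 higher (9.09%) and 0 lower members, against 3.99% and 4.47% of all genes. The higher ones were aldh1a2, the Notch target her6 (0.29 ± 0.13) and the tailbud factor tbx16l (0.29 ± 0.14), with its relative tbx16 next at 0.28 ± 0.14. her6 read 5.81, 5.81 and 5.84 at 5 mM against 5.33 to 5.63 (median 5.55), without overlap. The 85 nervous system genes had 6 higher (7.06%) and 4 lower (4.71%) members, 45 members above 0 and 40 below, and a median of 0.00. The leading ones were gfap, sox19b (0.37 ± 0.11) and her3 (0.29 ± 0.11), both expressed in neural progenitors, and gad1b (0.31 ± 0.13), which makes the transmitter GABA. For her3 the difference was 0.04 against 0.625 mM and 0.55 against 0.00625 mM. The mean of gad1b, 2.31, lay below the AsRed2 and DsRed1 levels. The other 6, added after their values were seen, were foxd3 (0.21) and pax6b (0.22) on the higher side and fabp7a (-0.32), neurod4 (-0.29), en2b (-0.26) and the neuronal elavl3 (-0.25) on the lower. Without 5 mM replicate 1, foxd3 was 0.13, en2b -0.10 and elavl3 -0.15. Without replicate 2, her3 was 0.16 and fabp7a -0.15, and without replicate 3 gad1b was 0.18. Of all 104 list members with an unadjusted p under 0.05, 39 shrank by over 1.5 times when 1 of the 9 arrays was left out, the array with the greatest effect being one of 5 mM for 38, and 0 changed sign. The 104 were chosen by p in these same arrays, which favours a stable sign. Each 5 mM array also weighs more in the difference than each lower-dose array.

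The 63 genes of the mitochondrial respiratory chain had 4 lower (6.35%) and 0 higher members, against 4.47% and 3.99% of all genes. Of the list, 44 lay below 0 (69.8%, against 52.2% of all genes), and the median was -0.04. The 4 lower members were uqcrq (-0.35 ± 0.14), ndufs7 (-0.28 ± 0.13), cox7a2a (-0.26 ± 0.11) and sdha (-0.25 ± 0.12), which was -0.10 without 5 mM replicate 3. The 58 cell cycle genes had 0 in either direction, with rpa2 (-0.18), bub3 (0.18), cdt1 (0.16) and e2f7 (0.18) first by p. The 71 genes of the cytosolic ribosomal list had 1 lower and 0 higher: rps6kal (-0.34), a kinase and not a ribosomal protein, followed by rpl3 (-0.18), rps3 (-0.17) and rpl13a (-0.10).

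Against the single doses the result was similar. Between 5 mM and 0.625 mM, limma called 0 probe sets (0%, smallest adjusted p 0.0993, and 5 calls without 5 mM replicate 2), with 705 higher (4.55%) and 456 lower (2.94%) at an unadjusted p under 0.05. Between 5 mM and 0.00625 mM it called 0 (0%, smallest adjusted p 0.0753, and 1 call without 0.00625 mM replicate 3), with 632 higher (4.08%) and 787 lower (5.08%). Of the 10 genes on each side, 7 of the higher and 8 of the lower were farther from 0.00625 mM than from 0.625 mM. The only call at this stage was between the lower doses themselves (1 probe set, 0.00645%): fgf13a, an intracellular fibroblast growth factor homolog of neurons, at 2.45, 2.53 and 2.59 for 0.625 mM against 3.28, 3.13 and 3.44 for 0.00625 mM. That difference was -0.76 ± 0.12 (limma adjusted p = 0.00816), and the 5 mM arrays, at 2.73, 2.76 and 2.82, lay between the lower doses. The mean of fgf13a over the 9 arrays, 2.86, lay below the AsRed2 level. The call was lost without 0.625 mM replicate 1 or 2 and without 0.00625 mM replicate 1 or 3, and there were 3 calls without 0.00625 mM replicate 2.

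The same doses were compared at the later stages in separate arrays. At 21-somites limma called 0 probe sets (0%, smallest adjusted p 0.794), with 492 at an unadjusted p under 0.05 (1.37% higher and 1.81% lower). At Prim-5 it called 1 (0.00645%), ube2d2l, a ubiquitin-conjugating enzyme, at -0.70 ± 0.12 (limma adjusted p = 0.0476), a gene named here because it was the only call; 845 had an unadjusted p under 0.05 (2.86% higher and 2.59% lower). At 6-somites ube2d2l read 3.38, 3.39 and 3.55 at 5 mM against 3.26 to 3.58 (median 3.48).

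The test of whether the dose difference itself changed with stage called 0 probe sets (limma), with 690 at an unadjusted p under 0.05 for 6-somites against 21-somites (2.63% positive and 1.83% negative) and 1113 for 6-somites against Prim-5 (3.5% positive and 3.68% negative). Of the 1284 probe sets with an unadjusted p under 0.05 at 6-somites, 760 (59.2%) had the same sign at 21-somites and 585 (45.6%) at Prim-5, where all probe sets gave 53.4% and 49.1%. Among the leading genes, 7 of 10 higher and 7 of 10 lower ones kept their sign at 21-somites, and 6 and 2 did so at Prim-5. Of the higher genes, slc3a2b, at 0.19 ± 0.09 and 0.20 ± 0.09, and cped1, at 0.32 ± 0.11 and 0.09 ± 0.11, were above 0 at 21-somites and Prim-5. So were snx14, at 0.18 ± 0.13 and 0.08 ± 0.13, and nckap5l, at 0.08 ± 0.10 and 0.03 ± 0.10. Of the lower genes, myl13 stayed below 0, at -0.13 ± 0.14 and -0.12 ± 0.14, while smyhc1 lay at 0.09 ± 0.14 and 0.03 ± 0.14.

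**Figure D4:**
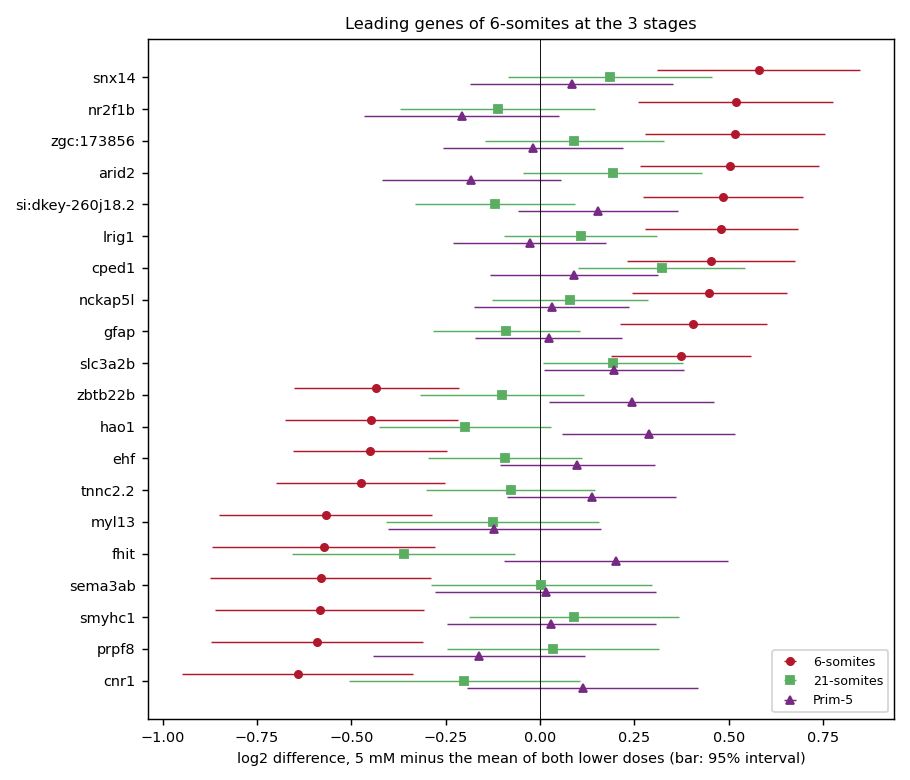
Log2 difference between 5 mM and the mean of both lower doses (x axis) for the 20 leading genes of 6-somites. Circles are 6-somites, squares 21-somites and triangles Prim-5, each difference being taken from its own 9 arrays. Bars are 95% intervals, which rest on a spread pooled over the MTBE arrays of all stages and not on that of each stage. The differences at the later stages run from -0.36 to 0.32 and are mostly nearer 0 than those at 6-somites, which chose the genes.

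A stage score asked whether the 5 mM embryos had been collected earlier or later in development. It is the mean log2 level of the 300 probe sets that rose most from 21-somites to Prim-5 in untreated embryos minus that of the 300 that fell most, so none of the 9 arrays chose its genes. The score was -2.30 ± 0.03 at 5 mM (SD, n = 3) and -2.24 ± 0.10 at the lower doses (SD, n = 6). The difference of -0.066 did not exceed the spread (exact two-sided permutation test over 84 splits, p = 0.310, smallest possible 0.0238). From 6-somites to 21-somites the score of lower-dose embryos moved by 1.51. Against 0.625 mM alone the difference was -0.0094 (exact permutation p = 1.0) and against 0.00625 mM alone -0.122 (p = 0.10, the smallest that 3 against 3 arrays allow in this exact test).

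**Figure D5:**
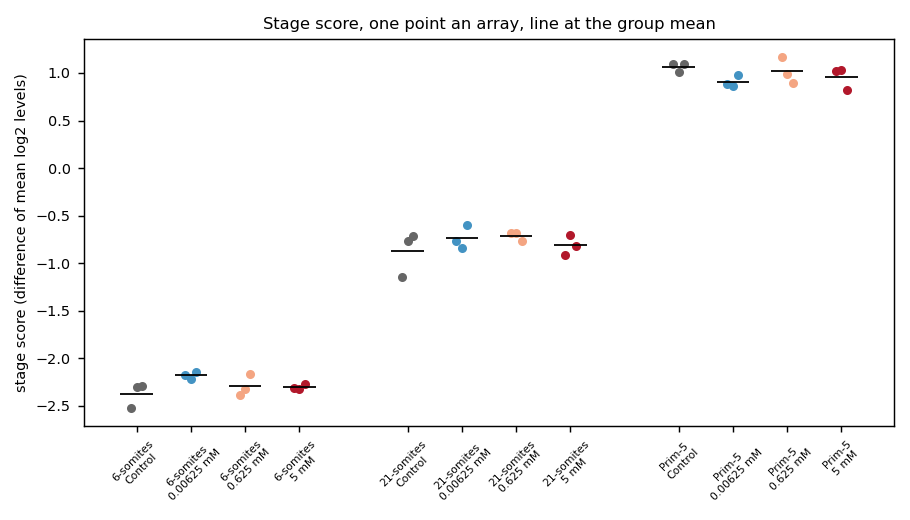
Stage score (y axis, difference of 2 mean log2 levels) of each array by stage and dose, with a line at each group mean. The 5 mM arrays at 6-somites average -2.30, within the range of the other 6-somites groups, and the stages stand well apart.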

How the data were processed

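Whole-embryo RNA was amplified (NuGEN), labelled with biotin and hybridised to 1-colour Affymetrix zebrafish arrays, per the labels' protocols. The authors deposited 1 table of processed log2 values for 15617 probe sets on 36 arrays. The log2 unit was read from the values. Which tools corrected the background, summarised the probes and normalized the arrays is not given in the sources used here, and scanner files were not used, so scan batches and signal over background were not examined. The 115 manufacturer controls were left out. Of the 15502 tested probe sets, 10795 had 1 gene symbol in GEO's platform annotation, 135 had several and 4572 had none, which are not named. The symbols covered 8793 genes, and 10711 probe sets matched RefSeq by Entrez ID.

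limma 3.58.1 in R 4.3.3 fitted 1 linear model with 9 groups of stage and dose to the 27 MTBE arrays (18 residual degrees of freedom), followed by eBayes, with two-sided p-values adjusted by Benjamini-Hochberg over all probe sets and a threshold of 0.05. The main contrast was the 5 mM mean minus the mean of the 2 lower-dose means. Comparisons that share the 5 mM or the lower-dose arrays are not independent. The fit and the stage score were tested on simulated data. Arrays have no read depth, and 3 arrays a group limit the precision. Replicates are pools of embryos, so a p-value covers only the spread among such pools, part of which may be technical.

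Genes were named by rule: the 10 each way with the smallest p where fewer than 10 passed (1 probe set a gene), the vegf genes, and the 4 members of each described list with the smallest p. Further members are said to be added after their values were seen. The probe set with the highest mean stands for a gene in the 37 lists. The members of the comparison and the lists were chosen with earlier results of these data known. Alternatives were other normalizations, filters, array sets, variance models and the omission of each array.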

Additional observations from a re-analysis of the deposited data

Results flagged for a closer look

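For nr2f1b, 1 of the 6 lower-dose arrays stood apart: 0.00625 mM replicate 2 read 1.98, inside the 5 mM range of 1.95 to 2.09, and its gap to the next array was 0.657 of the range of the 6 (critical value 0.625). Chance marks about 1 in 20 groups in this way, and the gene is dim.

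zbtb22b and hao1 differed in opposite directions at 2 stages, with no overlap of arrays at either. For zbtb22b the difference was -0.43 ± 0.11 at 6-somites and 0.24 ± 0.11 at Prim-5, which are -0.6774 apart. For hao1 it was -0.45 ± 0.11 and 0.29 ± 0.11, which are -0.7349 apart. The test of that change with stage did not pass for either gene (limma adjusted p = 0.406 for both).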

How the results depend on the processing

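The comparison of 5 mM with both lower doses called 0 probe sets in limma under every alternative run except the following. Adding 50 on the linear scale gave 2 (slc3a2b and 1 unnamed probe set). Leaving out 5 mM replicate 2 gave 8 and leaving out 0.00625 mM replicate 1 gave 1, while leaving out any other array gave 0. Against 0.625 mM the count was 1 when all 36 arrays were fitted and 0 to 5 with 1 array left out. Against 0.00625 mM it was 4 after quantile normalization, 1 after cyclic loess, 4 with 50 added, 1 with a trended and robust variance, and 0 to 1 with 1 array left out. The single call between the lower doses became 0 when the 9 arrays of the stage were fitted alone, 0 with 50 added, and 0 to 3 with 1 array left out. Dropping the probe sets under the median level also left 0, but that filter removed fgf13a itself and so could not test its call. The cause of the other shifts was not tested. The number of unadjusted p under 0.05 for 5 mM was 1284, and 792 or 768 in the 9 arrays alone, where the lower doses were 2 groups or 1, and 570 over the brighter probe sets, which are fewer. Of 431 recalculated differences of named genes, 426 kept their side of the threshold, 5 moved past it and 0 turned round. The number of lower skeletal muscle genes ran from 4 to 10 over settings added after seeing the data. Over the same settings the lower share of all tested probe sets ran from 2.43% to 5.36%. The stage score difference stayed between -0.114 and -0.0194 (exact permutation p of 0.119 to 0.738), and between -0.0964 and -0.0478 with 1 array left out.

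The replicate numbers showed no sign of pairing the samples. Deviations of arrays with the same number correlated at -0.10 to 0.096 over 9 pairs, 0 of them above 0.1. For arrays with other numbers the range was -0.153 to 0.157. So few correlations cannot exclude a weak pairing. With the replicate number as a block, limma again called 0, 0, 0 and 1 probe sets in the 4 comparisons at 6-somites, and 1239 had an unadjusted p under 0.05 for 5 mM against both lower doses. Below the mean of AsRed2 lay 46.1% of probe sets and below that of DsRed1 32.0%, and values that low may not track a change in RNA.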
